A study of Mus musculus with 32 samples.

Results

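The formyl peptide receptor (FPR) family is represented by the 7 genes Fpr1, Fpr2, Fpr3, Fpr-rs3, Fpr-rs4, Fpr-rs6 and Fpr-rs7 of the 49671 genes listed in the tables. It was taken by gene symbol with no limit on expression, although earlier results of these data were known. No other symbol in the tables begins with Fpr. Total RNA of the vomeronasal organ (VNO), the sensory organ of the nasal septum that detects pheromones and other social cues, was read from 32 mice at postnatal day 42. The mice belonged to the inbred strains 129 (129S6/SVEV in the sample labels, 129Sv/J in the paper), B6 (C57/BL6), SJL (SJL/J) and SWR (SWR/J), with 4 males and 4 females of each, and 1 library was made from the neuroepithelium of each animal. The labels name no transgene or treatment, and strain and sex were the only factors. The values are numbers of read pairs placed uniquely on a gene of the mouse reference genome, and normalized read counts, in which these numbers are divided by the size factor of the library. Between 5106398 and 18640871 read pairs fell on genes in a mouse (median 11461344). Omp, a marker of mature olfactory and vomeronasal neurons, had a mean normalized count of 16606 to 19534 in the 4 strains.

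FPRs are G protein-coupled receptors. Fpr1 and Fpr2 are known as receptors of neutrophils and macrophages, where they sense formylated peptides that bacteria and damaged mitochondria release and steer the cells towards them. Rodents carry further members of the family that are expressed by vomeronasal sensory neurons instead, each neuron choosing a single receptor. Fpr3 is known from basal neurons that signal through the G protein Go (gene Gnao1), and Fpr-rs3, Fpr-rs4, Fpr-rs6 and Fpr-rs7 from apical neurons that signal through Gi2 (gene Gnai2).

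All 7 genes lie on chromosome 17 (GRCm38) within 2748.4 kb. Fpr1 (ENSMUSG00000045551, chr17:17876471-17883940, minus strand) and Fpr2 (ENSMUSG00000052270, chr17:17887824-17893952, plus strand) are neighbours at the left end. Fpr3 (ENSMUSG00000079700, chr17:17887852-17971677, plus strand) has 2 annotated exons, the first of which overlaps the first exon of Fpr2 on the same strand, so that reads confined to the shared bases do not tell the genes apart. The remaining members are annotated as single exons of coding sequence only: Fpr-rs4 (ENSMUSG00000048062, chr17:18021733-18022704, plus strand), Fpr-rs7 (ENSMUSG00000071276, chr17:20113210-20114226, minus strand), Fpr-rs6 (ENSMUSG00000071275, chr17:20182078-20183097, minus strand) and Fpr-rs3 (ENSMUSG00000060701, chr17:20623846-20624877, minus strand). Their counts therefore hold no reads of untranslated exons.

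The coding sequences of the members were compared to see how far reads could be told apart. Fpr-rs6 and Fpr-rs7 were the most alike, with 985 of 1017 aligned bases the same (96.9%) and a longest shared run of 127 bases, so that 3 windows as long as a read occurred in both. Fpr2 and Fpr3 shared 88.2% of aligned bases (longest run 94 bases) and Fpr-rs3 and Fpr-rs4 86.1% (longest run 44 bases) and shared 0 windows of that length. Evenly spaced windows of each member (34 to 39 per gene) were also looked for in the other transcripts of the annotation. Among these, only 2 of 38 windows of Fpr2 were found, in transcripts of Gm5966. The windows between them were not checked. Counts of Fpr-rs6, Fpr-rs7 and Fpr2 are thus uncertain to the extent that reads fell into such stretches.

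The sequences around the starts of the 5 vomeronasal members are shown because the strain results below turn on these genes and because all 5 hold the same short run just before the start codon. They run from 250 bases before to 50 bases after the RefSeq start of the gene on GRCm38.p6, on the strand of the gene. For Fpr3 this start lies next to the coding exon and not at the left end of the annotated gene. The coordinates are chr17:17970208-17970507 for Fpr3, chr17:18021483-18021782 for Fpr-rs4, chr17:20624828-20625127 for Fpr-rs3, chr17:20183048-20183347 for Fpr-rs6 and chr17:20114177-20114476 for Fpr-rs7. Capitals mark the longest run that all 5 windows share, ATTGTTGAA, and the annotated start codon.
Fpr3: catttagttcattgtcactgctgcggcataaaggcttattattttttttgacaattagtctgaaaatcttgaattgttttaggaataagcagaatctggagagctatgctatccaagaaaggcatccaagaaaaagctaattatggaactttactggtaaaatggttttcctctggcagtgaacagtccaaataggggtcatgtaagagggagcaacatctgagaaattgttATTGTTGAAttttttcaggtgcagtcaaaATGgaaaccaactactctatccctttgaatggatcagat
Fpr-rs4: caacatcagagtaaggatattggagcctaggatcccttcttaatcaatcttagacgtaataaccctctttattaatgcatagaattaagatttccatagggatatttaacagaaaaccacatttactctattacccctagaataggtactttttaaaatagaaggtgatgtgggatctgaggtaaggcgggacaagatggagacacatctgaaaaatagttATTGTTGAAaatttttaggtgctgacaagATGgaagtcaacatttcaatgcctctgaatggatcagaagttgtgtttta
Fpr-rs3: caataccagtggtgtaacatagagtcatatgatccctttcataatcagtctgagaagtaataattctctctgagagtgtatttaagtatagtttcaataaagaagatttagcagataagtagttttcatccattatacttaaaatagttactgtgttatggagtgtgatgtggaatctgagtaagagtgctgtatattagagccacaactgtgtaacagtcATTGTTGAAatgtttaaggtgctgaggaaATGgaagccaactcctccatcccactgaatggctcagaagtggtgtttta
Fpr-rs6: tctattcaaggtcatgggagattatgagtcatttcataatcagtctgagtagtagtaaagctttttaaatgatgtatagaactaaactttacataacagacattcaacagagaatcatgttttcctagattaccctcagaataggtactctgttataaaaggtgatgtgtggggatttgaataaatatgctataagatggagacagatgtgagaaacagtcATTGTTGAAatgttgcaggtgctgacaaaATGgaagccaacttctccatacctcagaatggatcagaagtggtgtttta
Fpr-rs7: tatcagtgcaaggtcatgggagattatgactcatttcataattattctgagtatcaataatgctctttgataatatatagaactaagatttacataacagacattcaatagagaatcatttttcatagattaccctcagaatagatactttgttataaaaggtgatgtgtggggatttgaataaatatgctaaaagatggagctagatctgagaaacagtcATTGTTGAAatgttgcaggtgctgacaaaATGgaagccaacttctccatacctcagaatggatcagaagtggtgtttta
The run began at base 222 of the window in the 4 Fpr-rs genes, with the start codon at base 251, and at base 233 in Fpr3, with the start codon at base 262. It was found on either strand in 60 of 32851 RefSeq start windows of the same length (0.183%), these 5 included. The longer run ATTGTTGAAA was held by the 4 Fpr-rs genes and, on either strand, by 23 of 32851 windows (0.0700%). Upstream of the start, Fpr-rs6 and Fpr-rs7 were the same at 90.3% of aligned bases, Fpr-rs4 and Fpr-rs6 at 72.8%, and Fpr3 and any Fpr-rs gene at 58.2 to 62.1%.

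Levels of different members were compared per length, as TPM (read pairs divided by the length of the annotated exons and scaled to the same sum in each library). Fpr-rs3 had the highest level of the family in each of the 32 mice, with means of 124 ± 15.5, 75.3 ± 9.45, 158 ± 23.5 and 165 ± 10.8 TPM in 129, B6, SJL and SWR (SD, n = 8). In B6, SJL and SWR the next was Fpr3, with 41.2 ± 4.64, 43.3 ± 4.31 and 61.6 ± 6.52 TPM. The ratio of Fpr-rs3 to Fpr3 was 1.83 in B6, 3.65 in SJL and 2.68 in SWR, and the ranges of these 2 genes did not overlap within any of the 3 strains. With the length of the coding sequence as the divisor, the ratio was 1.52, 3.03 and 2.24, again without overlap. In 129 the next was Fpr-rs6 with 9.50 ± 2.14 TPM, 13.1 times lower than Fpr-rs3, followed by Fpr-rs7 with 9.46 ± 1.94.

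Not all neighbours in this order stood apart. In 129, Fpr-rs6 was above Fpr-rs7 in 3 of 8 mice, and in B6, Fpr-rs4 (19.5 ± 3.56 TPM) was above Fpr-rs6 (19.4 ± 2.35) in 3 of 8 mice. In SJL, Fpr3 exceeded Fpr-rs6 (35.7 ± 7.24) and Fpr-rs6 exceeded Fpr-rs4 (25.4 ± 5.602) in 7 of 8 mice each, with overlapping ranges. In SWR, Fpr-rs6 (26.6 ± 2.88) exceeded Fpr-rs4 (22.7 ± 2.36) in 8 of 8 mice, although the ranges over mice overlapped. Fpr-rs7 stayed between 7.85 ± 1.60 (SJL) and 9.81 ± 2.92 TPM (B6). Fpr1 and Fpr2 were the lowest members in each strain, with means of 0.0859 to 0.635 TPM.

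The family as a whole had a summed level of 147 ± 17.9, 166 ± 18.9, 271 ± 38.1 and 285 ± 17.0 TPM in 129, B6, SJL and SWR (SD, n = 8). In bulk tissue a smaller number of neurons that express a receptor and less RNA per neuron cannot be told apart, here or in any difference given below. Reads of all strains were placed uniquely on a reference derived from B6. The study reports strain-specific single-base differences in coding sequences of the family. Whether reads of 129, SJL or SWR were lost to such differences was not tested, so low counts in 129 need not be low expression. Of the summed TPM of V1r, V2r and FPR genes together, the FPR genes made up 3.92% ± 0.32, 3.06% ± 0.22, 5.25% ± 0.26 and 5.23% ± 0.20 in the same order of strains. The share of single members differed widely. Fpr-rs3 alone made up 84.6% ± 1.77 of the family's TPM in 129, but 45.3% ± 2.51, 58.2% ± 0.92 and 58.0% ± 1.88 in B6, SJL and SWR. Fpr3 made up 1.93% ± 0.62 in 129 and 24.9% ± 1.94 in B6. Without Fpr-rs3, the summed normalized count was 135 ± 18.5 in 129 and 501 ± 47.6, 607 ± 55.2 and 675 ± 55.01 in B6, SJL and SWR.

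**Figure D1:**
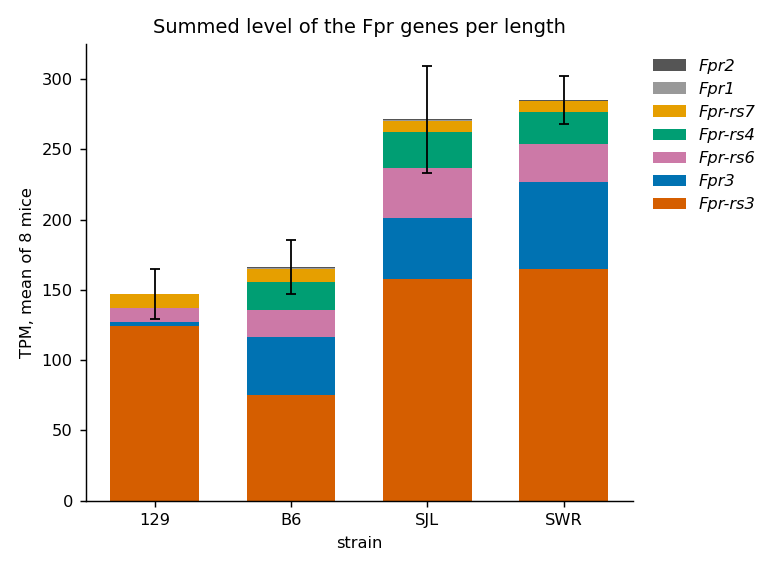
Level per length of the 7 Fpr genes in each strain, as the mean TPM of 8 mice (y axis, linear from 0) stacked by gene, with bars for the SD of the summed level among mice. Fpr-rs3 forms the largest part in each strain (75.3 to 165 TPM), and the parts of Fpr3 and Fpr-rs4 are close to nothing in 129 (2.86 and 0.606 TPM).

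Strains were compared in 6 pairs with edgeR's quasi-likelihood test across 18382 genes, adjusting for sex. A gene counted as differentially expressed (DE) with an absolute log2 fold change (LFC) above 1 and a Benjamini-Hochberg FDR under 0.05. Of the 7 members, 5 passed the filter on low counts, and Fpr1 and Fpr2 did not. Fpr3, Fpr-rs3, Fpr-rs4 and Fpr-rs6 were DE in at least 1 pair, 4 of the 5 tested, where 19.7% of all genes tested were. By the FDR alone all 5 tested members passed in at least 1 pair, as did 80.1% of all genes. For comparison, 82 of 157 V1r genes and 80 of 121 V2r genes tested were DE in at least 1 pair. Fpr-rs4 passed the filter through B6, SJL and SWR alone, since 0 of 8 mice of 129 reached its limit, and a gene of that kind had to differ. In each pair the members called were higher in the strain named first. By pair, 2 of 5 members were DE between B6 and 129 (11% of all genes, 8.51% higher), 3 between SJL and 129 (8.38%, 5.64% higher), 3 between SWR and 129 (7.74%, 4.63% higher), 1 between SJL and B6 (7.93%, 2.73% higher), 1 between SWR and B6 (7.96%, 2.56% higher) and 0 between SWR and SJL (4.49%). The median LFC of the 5 members was 0.81 for B6, 1.68 for SJL and 1.29 for SWR against 129, where that of all genes tested was 0.01, 0.00 and -0.01, and the 3 comparisons share the 129 mice. In the comparison of SWR with SJL, edgeR and DESeq2 called 0 members. By edgeR's FDR alone 2 members passed there, Fpr3 (FDR = 5.92e-06) and Fpr-rs6 (FDR = 0.00512), under the limit on fold change. Ranges of the 8 mice of each strain that did not overlap were found for 14.4%, 11.9%, 13.5%, 13.1%, 12.5% and 10.2% of all genes in these 6 pairs, in the order given.

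Libraries differed in their share of reads on 214 genes of families typical of other tissues, such as keratin-associated proteins, whose median was 0.537 CPM (read pairs scaled to a common library size) in 129 and 4.16 to 6.82 in the other strains. With this share as a covariate, each of the 60 comparisons of a member between strains or sexes kept its side of the threshold, interactions included. Those called kept their direction. Those not called, interactions aside, moved by less than the standard error (SE) of the LFC.

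**Figure D2:**
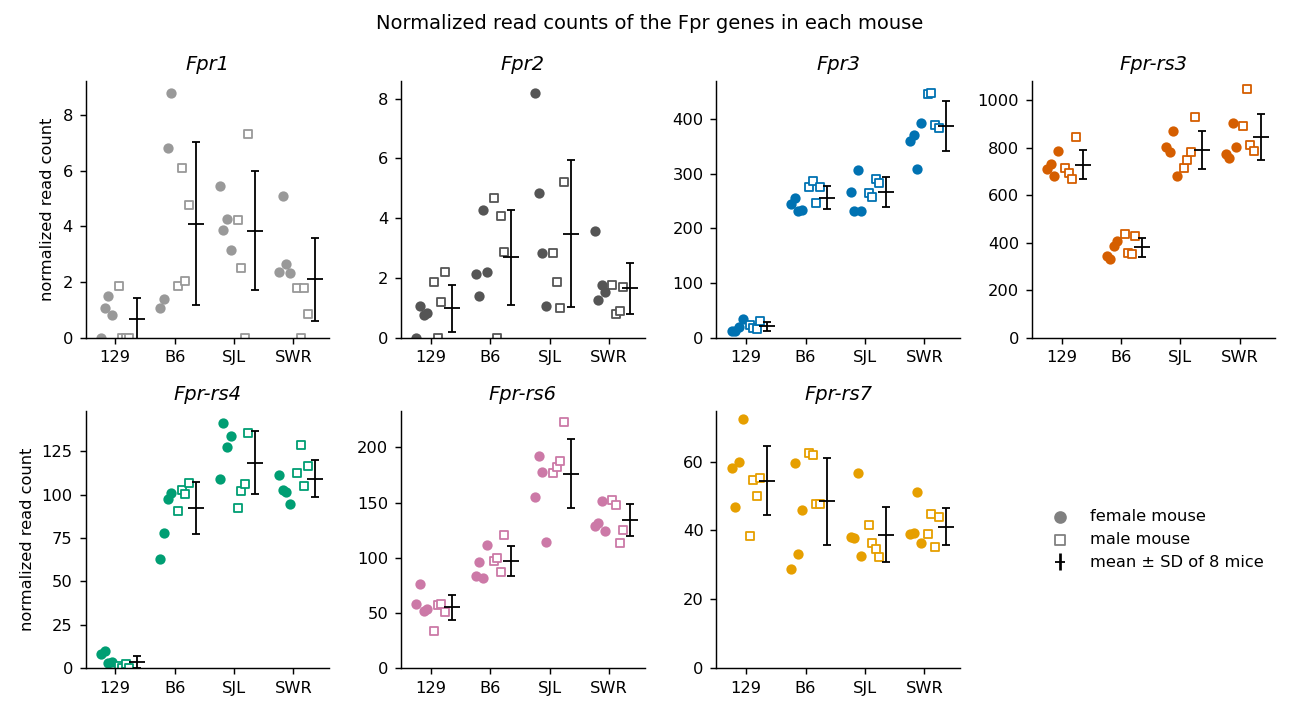
Normalized read count of each Fpr gene (y axis, linear, own scale per panel) in each of the 32 mice, by strain, with filled circles for females, open squares for males and a bar for the mean ± SD of 8 mice, cut off at 0. In the panels of Fpr3 and Fpr-rs4 each mouse of 129 lies below each mouse of the other strains, and in that of Fpr-rs3 each mouse of B6 lies below the others.

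Fpr3 was low in 129 and highest in SWR. Its normalized count ranged from 11.7 to 33.8 in 129 (median 19.4), from 231 to 287 in B6 (median 251), from 231 to 307 in SJL (median 266) and from 308 to 447 in SWR (median 386). The 8 mice of 129 lay below all 24 others, and the SWR mice lay above those of B6 and, by a narrow margin, above those of SJL. Compared with 129, Fpr3 was 11.96 times higher in B6 (LFC 3.58 ± 0.12 SE, FDR = 3.35e-23), 12.5 times higher in SJL (3.64 ± 0.12, FDR = 2.00e-23) and 18.1 times higher in SWR (4.18 ± 0.12, FDR = 2.26e-25). SWR exceeded B6 by an LFC of 0.60 ± 0.09 (FDR = 7.37e-07) and SJL by 0.53 ± 0.08 (FDR = 5.92e-06), which was under the limit on fold change. SJL and B6 differed by 0.06, with a 95% interval of -0.11 to 0.23. In 129 Fpr3 was present in each mouse, with 171 read pairs in all over 8 mice.

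Fpr-rs4 had few or no reads in 129. Its 129 libraries held 0 to 9 read pairs each and 27 in all, at a normalized count of 0 to 9.59 (median 2.69). The counts ran from 62.9 to 107 in B6 (median 98.8), from 92.5 to 141 in SJL (median 118) and from 94.8 to 129 in SWR (median 108). All 129 mice lay below all others, while the other 3 strains overlapped. The LFC against 129 was 4.73 ± 0.26 in B6 (FDR = 6.04e-17), 5.09 ± 0.25 in SJL (FDR = 4.09e-18) and 4.97 ± 0.25 in SWR (FDR = 9.03e-18), or 26.5, 34.0 and 31.4 times. The differences among B6, SJL and SWR were between -0.11 and 0.36 in LFC and did not pass (FDR of 0.0705 to 0.626).

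Fpr-rs3, the most abundant member, was low in B6 instead. It ranged from 333 to 436 in B6 (median 372), from 669.5 to 846 in 129 (median 712), from 681 to 927 in SJL (median 782) and from 755 to 1044.5 in SWR (median 807). The B6 mice lay below all others, and the other 3 strains overlapped. SJL exceeded B6 by an LFC of 1.06 ± 0.07 (2.08 times, FDR = 6.97e-15) and SWR by 1.16 ± 0.07 (2.23 times, FDR = 5.68e-16). B6 was lower than 129 by an LFC of -0.95 ± 0.07 (1.93 times, FDR = 1.27e-13), which fell short of the limit on fold change by a small margin. Between SWR and 129 the LFC was 0.21 ± 0.07 (FDR = 0.0102). It was 0.11 between SJL and 129 (FDR = 0.202) and 0.10 between SWR and SJL (FDR = 0.253). Fpr3 and Fpr-rs4, which were low in 129, were not low in B6.

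Fpr-rs6 was lowest in 129 and highest in SJL, and by the FDR alone it differed in all 6 pairs. It ranged from 33.7 to 75.7 in 129 (median 55.2), from 81.9 to 120.2 in B6 (median 96.3), from 113 to 152 in SWR (median 131) and from 114 to 223 in SJL (median 180.1). The 129 mice lay below all others, and the ranges of B6, SWR and SJL overlapped in turn. SJL exceeded 129 by an LFC of 1.68 ± 0.12 (3.21 times, FDR = 9.27e-14) and SWR by 1.29 ± 0.12 (2.44 times, FDR = 8.13e-11). B6 exceeded 129 by 0.81 ± 0.12 (FDR = 1.76e-06), and in males alone by 1.02, above the limit. The other 3 pairs had LFCs of 0.88 (SJL against B6), 0.48 (SWR against B6) and -0.39 (SWR against SJL), each with an FDR of 0.00512 or less.

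Fpr-rs7 was the member with the least strain difference. It ranged from 38.4 to 72.5 in 129 (median 54.996), from 28.8 to 62.4 in B6 (median 47.7), from 32.4 to 56.8 in SJL (median 37.0) and from 35.1 to 51.3 in SWR (median 39.2). All 4 ranges overlapped. Its largest LFC was -0.50 ± 0.15 between SJL and 129 (1.42 times lower in SJL, FDR = 0.00674), followed by -0.41 ± 0.15 between SWR and 129 (FDR = 0.0223). It was called in 0 of 6 pairs by edgeR and by DESeq2, with an unadjusted p under 0.05 in 3 pairs.

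Although Fpr-rs6 and Fpr-rs7 were the pair of members closest in sequence, they did not keep 1 ratio. The normalized count of Fpr-rs6 divided by that of Fpr-rs7 in the same mouse was 0.739 to 1.61 in 129 (median 0.960), 1.55 to 2.89 in B6 (median 2.13), 2.85 to 3.91 in SWR (median 3.30) and 3.12 to 6.90 in SJL (median 4.64). The ratio was looked at after the values were seen, and no test was made of it.

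**Figure D3:**
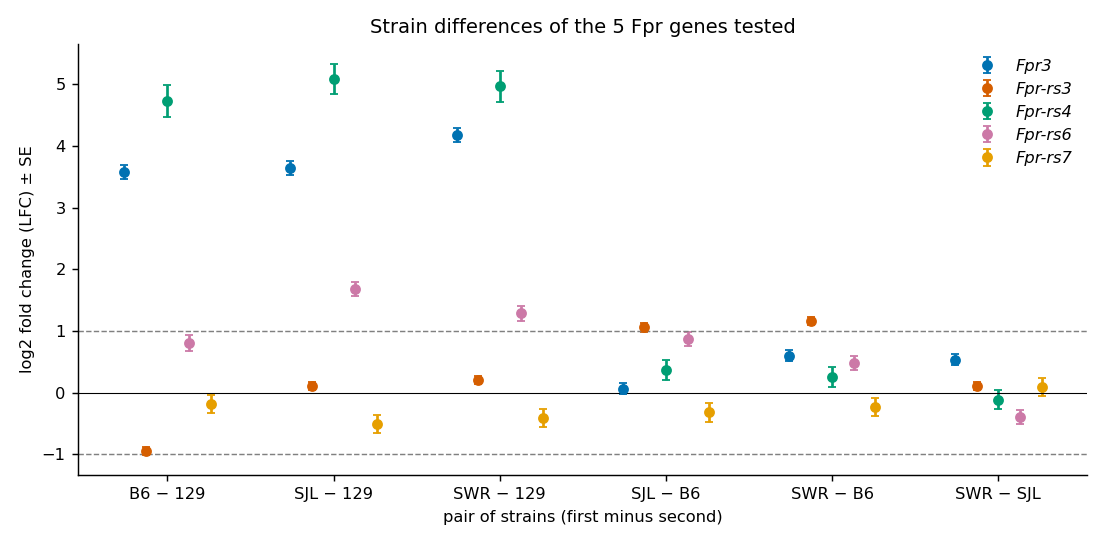
Log2 fold change (y axis, ± SE) of the 5 Fpr genes tested in each of the 6 pairs of strains (x axis, first strain minus second), with dashed lines at the limits of 1 and -1. Fpr3 and Fpr-rs4 stand at 3.58 to 5.09 in the pairs with 129 and at -0.11 to 0.60 in the other pairs, where Fpr-rs3 reaches 1.16.

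Fpr1 and Fpr2, the members known from phagocytes, had few reads in these libraries. Fpr1 had 0 to 2 read pairs in a mouse of 129, 1 to 8 in B6, 0 to 7 in SJL, and 0 to 4 in an SWR mouse, and 6, 29, 33 and 17 in all over the 8 mice of each strain. Fpr2 had 0 to 2, 0 to 5, 1 to 9 and 1 to 3, and 8, 21, 30 and 14 in all. The ranges of all strains overlapped for both genes. Without the filter on low counts, edgeR gave Fpr1 an LFC of 2.29 ± 0.64 for B6 against 129 (FDR = 0.00362) and 2.25 ± 0.63 for SJL against 129 (FDR = 0.00646), and DESeq2 gave FDRs of 0.00367 and 0.00633. Fpr2 passed for SJL against 129 alone, with 1.68 ± 0.58 (FDR = 0.0308, and 0.0312 by DESeq2). In edgeR without the filter, 12873 genes were called in at least 1 pair. The share of reads on genes typical of other tissues, which had its lowest median in 129, was not tried as a covariate for Fpr1 or Fpr2.

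Markers of phagocytes also differed between the strains. Of 12 macrophage markers 12 were tested, and 8 were higher in B6 than in 129 (Adgre1, Aif1, C1qa, C1qb, C1qc, Fcgr1, Lyz2 and Mrc1), 7 in SJL, and 3 in SWR, where Cd163 was lower. Their summed normalized count was 782 to 1208 in 129, 1888 to 2668 in B6, 1761 to 2355 in SJL, and 1193 to 1653 in the SWR mice. The macrophage sums of 129 lay below those of B6 and SJL and overlapped those of SWR. Of 14 neutrophil markers 7 were tested. Compared with 129, S100a8 was higher in B6 and SJL and Mmp9 in B6 and SWR. The sums of the list overlapped between all strains (2712 to 40515 in 129 and 2587 to 57010 in B6, the widest). Ltf made up most of these sums, with mean normalized counts by strain of 8293 (SJL) to 11855 (SWR). Lcn2, the next highest, had means of 204 (SJL) to 373 (B6). The overlap of the sums thus follows Ltf and does not show whether the other neutrophil markers overlapped. The part of these cells in the counts of any Fpr gene was not tested.

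Markers of the neurons themselves were not called. Of the markers of mature vomeronasal neurons (3 of 4 tested), apical neurons (3 of 3) and basal neurons (3 of 3), 0 were called in any pair. Their summed counts overlapped between strains except that those of B6 were below the others for apical neurons (11043 to 12867, against 13101 to 14991 in 129) and, against SWR alone, for basal neurons (3410 to 4095, against 4529 to 5298). Gnai2 was the largest part of the apical sums, with 5397 to 6927 in B6 and 7508 to 8854 in 129. The B6 counts of Meis2 (2852 to 3199) and Nrp2 (2306 to 2914) overlapped those of 129 (2852 to 3305 and 2614 to 3034). Those of Meis2 lay below SJL (3235 to 3665) and SWR (3494 to 3988). Of 12 tested genes of vomeronasal signal transduction, Plcb2, a phospholipase, was higher in B6 (LFC 1.04 ± 0.09) and SWR (1.002 ± 0.09) than in 129. Kcnj3, a potassium channel subunit, was lower in B6 than in 129 (-2.23 ± 0.12), SJL and SWR. Of 12 tested genes that encode known FPR agonists, Hebp1, which encodes a heme-binding protein, was lower in B6 than in 129 (-1.44 ± 0.19) and SWR, and Adcyap1, which encodes the neuropeptide PACAP, was higher in SWR than in 129 (1.07 ± 0.13) and SJL. The remaining 10 genes of that list were called in 0 of 6 pairs. Of 6 markers of olfactory neurons of the main epithelium 5 were tested, and they did not move together. Gnal and Stoml3 were called higher in B6 than in each other strain, with uneven normalized counts among the B6 mice (17.7 to 226 for Gnal and 9.32 to 228 for Stoml3) that overlapped those of 129 (11.2 to 30.9 and 4.26 to 10.7). Adcy3, Cnga4 and Cngb1 had LFCs of -0.49, -0.39 and -0.51 for B6 against 129, under the limit on fold change, and Cnga4 was called lower in SWR than in SJL. The summed normalized count of the 6 markers was 2495 to 3223 in B6, below the 3370 to 4111 of 129.

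The stretch between Fpr1 and Fpr-rs3 also holds V2r receptor genes. Besides the 5 members, 28 genes of the stretch were tested, 26 of them V2r genes or pseudogenes, and 14 of these 26 were DE in at least 1 pair. So were 80 of 121 V2r genes tested anywhere in the genome and 19.7% of all genes tested. Against 129, V2r genes of the stretch were called in both directions (11 higher and 3 lower in B6, 8 and 4 in SJL, 9 and 3 in SWR). Over the 121 V2r genes, 41 were higher and 10 lower in B6, 21 and 10 in SJL, and 39 and 10 in SWR. The members called against 129, 2 in B6 and 3 each in SJL and SWR, were all higher, as were 8.51%, 5.64% and 4.63% of all genes tested. Members that passed by edgeR's FDR alone went both ways. Fpr-rs3 in B6 (LFC -0.95) and Fpr-rs7 in SJL (-0.50) and SWR (-0.41) were lower than in 129. Fpr-rs6 in B6 (0.81) and Fpr-rs3 in SWR (0.21) were higher. The largest differences of the stretch belonged to Vmn2r-ps125 (LFC of 7.20 in B6, 7.61 in SJL and 7.52 in SWR against 129), Vmn2r96 (6.16, 6.22 and 6.30) and Vmn2r-ps117 (-5.40, -5.48 and -4.62). Fpr3 and Fpr-rs4, at the left end, and Vmn2r96 and Vmn2r-ps125, further along, were thus low in 129, with genes between them that were not called.

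**Figure D4:**
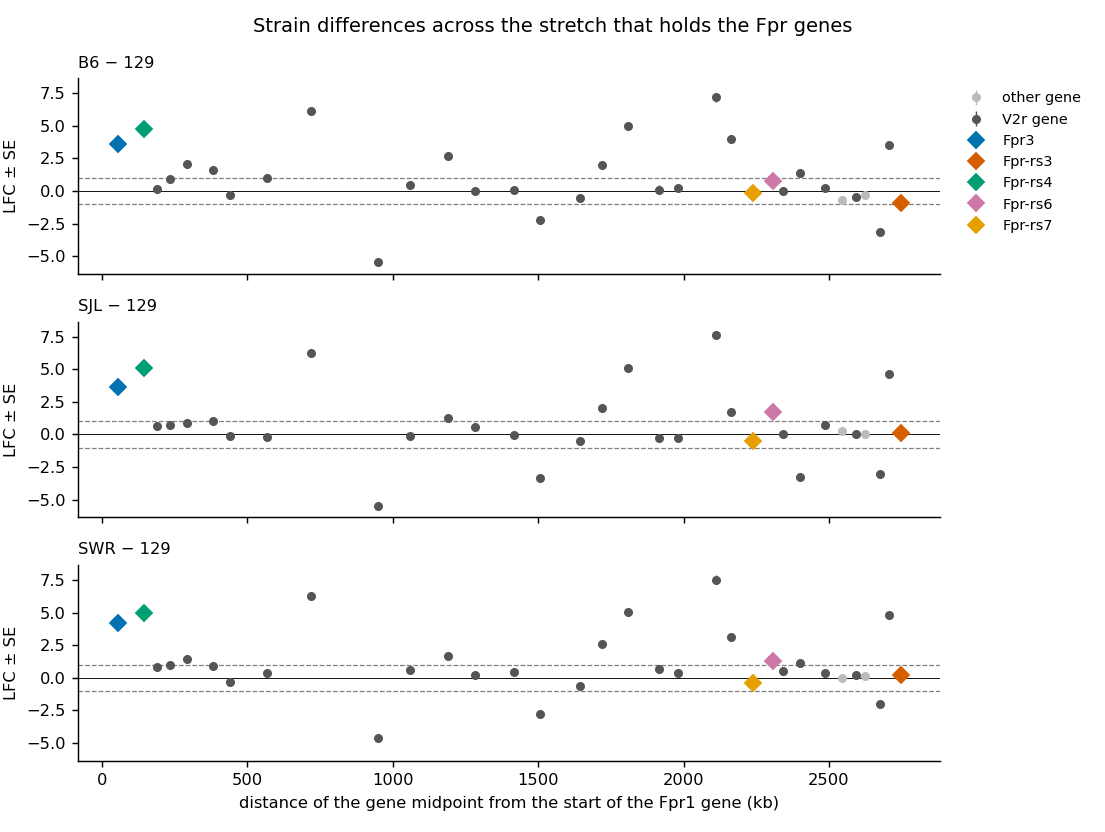
Log2 fold change (± SE) of the 33 genes tested between Fpr1 and Fpr-rs3, plotted by the distance of the gene's midpoint from the start of the Fpr1 gene in kb, for B6, SJL and SWR against 129, with dashed lines at 1 and -1. Coloured diamonds are Fpr genes, dark circles V2r genes and pale circles others, and Fpr3 and Fpr-rs4 (53.3 and 145.7 kb) lie at 3.58 to 5.09, with Vmn2r-ps125 at 7.20 to 7.61 and Vmn2r-ps117 at -5.48 to -4.62.

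Of all tested genes outside the family, those with the most similar pattern over the 32 mice were found by Pearson's r of log2 (normalized count + 1), a measure that follows the strain means and is given without a test. For Fpr3 they were Gm15987 (r = 0.985), Vmn2r77 (0.982) and Vmn2r96 (0.981), and for Fpr-rs4 Gpr137b-ps (0.980), Vmn1r20 (0.959) and Vmn2r96 (0.957). Rpl34-ps1 (0.967), Gm6472 (0.960) and Gm3650 (0.955) were nearest to Fpr-rs3, and Vmn1r8 (0.931), 5730508B09Rik (0.929) and Vmn1r87 (0.928) to Fpr-rs6. For Fpr-rs7 the highest values were lower, with Amn1 (0.769), Wdr17 (0.751) and Tia1 (0.738). After centring by strain and sex the lists changed, except that Gpr137b-ps stayed first for Fpr-rs4 (0.790, followed by B4galt1 at 0.721). The others were 1700040L02Rik, Rpe and Npat for Fpr3 (0.684 to 0.705), Ndufs1, Tmem205 and Idh1 for Fpr-rs3 (0.830 to 0.859), Lingo2, S100z and Vmn1r91 for Fpr-rs6 (0.747 to 0.748), and Pign, Stradb and Ddx47 for Fpr-rs7 (0.777 to 0.822). These are among the 3 highest of 18377 genes searched for each member, and both genes of a pair were read from the same libraries.

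The sexes were compared over all strains and within each. Over the 4 strains, 0 of 5 members were called between 16 males and 16 females (absolute LFC above 1 and FDR under 0.01, as 0.0381% of all genes) by edgeR and by DESeq2. The LFC of males minus females was 0.15 ± 0.07 for Fpr3 (unadjusted p = 0.0344, FDR = 0.492 by edgeR), the only member with an unadjusted p under 0.05 (9.1% of all genes), and lay between -0.04 and 0.06 for the others. Within strains, 0 of 5 members were called in 129 (0.0381% of all genes), B6 (0.0598%), SJL (0.0544%) or SWR (0.0762%) by either tool. An unadjusted p under 0.05 was found for Fpr-rs4 in 129 (7.82% of all genes), for Fpr-rs7 in B6 (9.26%), where its LFC was 0.42 ± 0.20 (FDR = 0.532 by edgeR), and for 0 members in SJL (6.51%) or SWR (8.31%).

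The few reads of Fpr-rs4 in 129 came mostly from females. The 4 females had 7, 9, 4 and 4 read pairs, and the 4 males 1, 0, 2 and 0. Each female was above each male, 24 read pairs against 3 in all, which is 6.77 times more relative to the depth of the libraries, with an exact 95% counting interval of 2.06 to 35.1 that leaves out variation among mice. This member and strain were looked at in detail after their values were seen, and no mouse of 129 reached the limit of the filter on low counts for this gene. In edgeR the LFC of males minus females was -2.62 ± 0.58 (unadjusted p = 8.51e-05, FDR = 0.0978), which did not pass over all genes. With 1 library left out it passed without 129 female 3 (FDR = 0.0285), without 129 female 4 (FDR = 0.0467) and without 129 male 3 (FDR = 0.0292). The LFC ranged from -3.62 without 129 male 3 to -2.27 without 129 male 2. Over all alternatives the FDR ranged from 0.0280 to 0.507, with 0.437 by DESeq2. In B6, SJL and SWR the LFC of Fpr-rs4 was 0.25 ± 0.18, -0.24 ± 0.17 and 0.17 ± 0.17. The interaction of sex and strain called 0 of 5 members in edgeR (0.0163% of all genes). Fpr-rs4 had an unadjusted p of 0.000300 and an FDR of 0.165 there, the only member under 0.05 unadjusted (8.94% of all genes). DESeq2 called it (FDR = 0.0232), and its FDR ranged from 0.00958 to 0.299 over the alternatives.

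**Figure D5:**
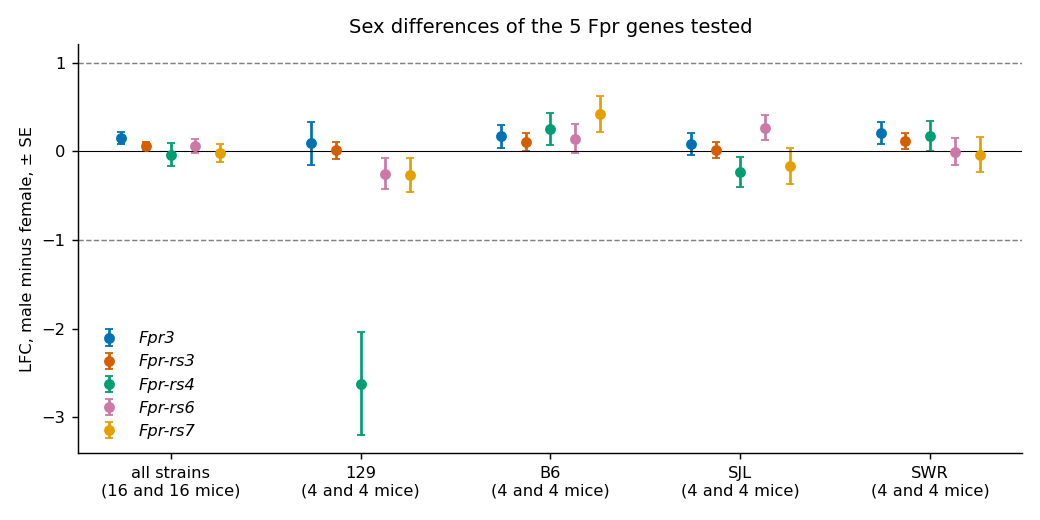
Log2 fold change of males minus females (y axis, ± SE) of the 5 Fpr genes tested, over all strains and within each strain (x axis), with dashed lines at 1 and -1. All values lie within the lines except that of Fpr-rs4 in 129, at -2.62, which rests on 27 read pairs.

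Among the 8 mice of a strain the members varied by different amounts, and those with few reads varied most. The coefficient of variation (CV) of the normalized count of Fpr-rs3 was 8.16%, 10.3%, 10.2% and 11.4% in 129, B6, SJL and SWR, where counting alone would give 3.33 to 5.56%. That of Fpr3 was 8.20%, 10.04% and 11.7% in B6, SJL and SWR, and 38.2% in 129, where counting alone would give 22.2%. For Fpr-rs4 it was 16.2%, 15.3% and 9.63% in B6, SJL and SWR, and 106% in 129 against 54.5% from counting. Fpr-rs6 varied by 10.7% (SWR) to 21.1% (129) and Fpr-rs7 by 12.9% (SWR) to 26.2% (B6). The highest mouse of a strain had 1.24 to 2.25 times the normalized count of the lowest for Fpr-rs3, Fpr-rs6, Fpr-rs7 and, outside 129, Fpr3 and Fpr-rs4.

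Genes with a mean normalized count between 0.8 times that of the member and its inverse gave a scale for these CVs. In 129, 90.4% of 270 such genes had a lower CV than Fpr-rs4 and 74.9% of 1056 a lower one than Fpr3. In SWR, 89.97% of 1485 genes varied less than Fpr-rs3 and 84.9% of 1815 less than Fpr3, and in SJL 89.3% of 1518 genes less than Fpr-rs6. Fpr-rs7 in SWR was among the steadier genes, with 12.03% of 1056 below it. Over all strains, edgeR's biological CV was 0.081 for Fpr3, 0.088 for Fpr-rs3, 0.135 for Fpr-rs4, 0.133 for Fpr-rs6 and 0.159 for Fpr-rs7, where the median was 0.108 over all genes, 0.133 over V1r genes and 0.117 over V2r genes.

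Strain held most of the variance of log2 (normalized count + 1) over the 32 mice, namely 97.5% for Fpr3, 92.4% for both Fpr-rs3 and Fpr-rs4 and 88.0% for Fpr-rs6, but 32.2% for Fpr-rs7. The median was 42.5% over all genes tested, 73.9% over V1r genes and 88.2% over V2r genes. Sex held 0.97% or less for each member.

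Whether the spread itself differed between strains was tested with limma on each mouse's absolute deviation from the mean of its strain and sex, on the scale of log2 CPM. Fpr-rs4 spread more in 129 than in B6 (FDR = 0.0113), SJL (FDR = 0.00840) and SWR (FDR = 0.00189), and Fpr3 more in 129 than in B6 (FDR = 0.0167), where 0.549%, 0.0816% and 0.136% of all genes passed in B6, SJL and SWR against 129. These 4 were the only calls among 30 tests of 5 members in 6 pairs, the other pairs having backgrounds of 0.272% (SJL and B6), 0.364% (SWR and B6) and 0.0163% (SWR and SJL). However, in simulated data this test gave 9.39% of unchanged genes a p under 0.05, so that its p-values are too small. With the variance of each group of 4 mice as the measure, an alternative added after seeing the data that gave 4.93% there, 0 of the 30 tests passed, and the FDR of these 4 was between 0.151 and 0.911. Both genes had their lowest counts in 129, and the part of counting error in their spread was not tested.

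Members were also compared among mice of the same strain and sex. After centring by strain and sex, Pearson's r between members ranged from -0.65 to 0.46 over the 32 mice, with 6 of 10 values above 0. The largest values belonged to Fpr3 and Fpr-rs4 (r = -0.65, permutation p = 0.0581, and rho = -0.41, permutation p = 0.0872) and to Fpr-rs3 and Fpr-rs6 (r = 0.46, permutation p = 0.0200, and rho = 0.48, permutation p = 0.0132). Without the 2 mice farthest from the median of the first gene, r was -0.56 and 0.42. Within strains, r of Fpr3 and Fpr-rs4 was -0.59, 0.21, -0.24 and 0.54 in 129, B6, SJL and SWR, and that of Fpr-rs3 and Fpr-rs6 was -0.05, 0.56, 0.70 and 0.69. In all 270 relations were computed, 10 between members and 260 with 52 tested genes of the marker, transduction and agonist lists. Of these, 0 passed after Benjamini-Hochberg adjustment for either coefficient, with 29 at an unadjusted permutation p under 0.05 for Pearson's r. The adjusted p of Pearson's r was 0.469 for Fpr3 and Fpr-rs4 and 0.300 for Fpr-rs3 and Fpr-rs6, and that of rho 0.516 and 0.509. Without SWR female 4, 1 of the 270 passed, that of Fpr-rs7 with Gng8 (r = 0.71 and adjusted p = 0.116 with all mice).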

How the data were processed

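Libraries of ribosome-depleted, stranded total RNA from the VNO neuroepithelium of 32 single mice were read as pairs. According to the submitters' processing notes and the study's methods, the deposited counts are whole read pairs that the authors placed uniquely on GRCm38, a reference derived from B6, with STAR 2.5.2b, for all strains alike, and assigned by strand to Ensembl 87 genes. Positions and lengths come from GENCODE vM21, and start sequences from RefSeq (GRCm38.p6). The deposited normalized counts, a signal scaled by the authors with DESeq2 size factors, gave the levels shown. The counts were tested with edgeR 4.0.16 (TMM, quasi-likelihood, R 4.3.3) over 18382 genes that passed its filter (minimum count 10, or 0.872 CPM, in at least 4 mice), spread with limma 3.58.1, and DESeq2 1.42.0 was an alternative. LFC is the first-named strain, or male, minus the second. The scripts were tested on simulated data. Correlations used 100000 shuffles within strain and sex. The members, marker lists, transduction and agonist lists were chosen with earlier results of these data known. Named were all members and, per member, the 3 genes of highest r, plus genes called in a list, and the 3 genes of largest LFC in the stretch. Of these, 1 gene is not reported here. Mice are the replicates, and litters are not given. No 2 of 48 pairs of libraries of a group were alike within sampling noise (chi-square per degree of freedom 2.85 to 50.9).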

Additional observations from a re-analysis of the deposited data

Results flagged for a closer look

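Of 84 sets of mice examined for a value far from the others (each member in each strain, and in each strain and sex), 4 held one, and chance alone gives about 1 in 20. Fpr1 had a normalized count of 1.872 in 129 male 1, from 2 read pairs, where the other 3 males of 129 had 0. Fpr1 reached 5.073 in SWR female 2, from 4 read pairs, where the next of the 4 SWR females had 2.653. Fpr2 reached 3.554 in SWR female 1, from 3 read pairs, where the next of the 8 SWR mice had 1.772. Fpr-rs7 reached 56.8 in SJL female 3, from 40 read pairs, where the next of the 8 SJL mice had 41.67.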

How the results depend on the processing

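The 4 members called in at least 1 pair of strains stayed 4 without any 1 of the 32 libraries and with the replicate number as a block. They became 2 with an absolute LFC above 2 (Fpr3 and Fpr-rs4), 5 with the FDR alone, and 6 with DESeq2 or without the filter on low counts, where Fpr1 and Fpr2 were tested too. The 3615 genes called in at least 1 pair became 7607 with DESeq2, 12873 without the filter, 14733 with the FDR alone and 1173 with an absolute LFC above 2. The 7 genes called between the sexes became 60 with an FDR under 0.05 alone. Calls of members between the sexes within strains rose from 0 to 1 (Fpr-rs4 in 129) without the filter and ranged from 0 to 1 with 1 library left out, and those of the interaction rose from 0 to 1 with DESeq2 and without the filter. The 4 calls of spread became 1 with deviations from the median and 0 with group variances, and ranged from 2 (without 129 female 2) to 6 (without 129 male 1) with 1 library left out. Relations among mice that passed ranged from 0 to 1 with 1 library left out. Where a cause is not plain from the setting, it was not tested.

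The replicate numbers 1 to 4, which follow the lane number in the library descriptions, did not pair the mice: 30 of 112 pairs with the same number had deviations correlated above 0.1 (mean r = -0.01), and 6 of 32 libraries correlated best with their own number. With the replicate number as a block, 4 members and 3572 genes were called between strains, 3 calls of spread were made, and each of 60 comparisons of a member kept its call.

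Of 3200 values of single members with 1 library left out, 3177 kept their call or, if not called, moved by less than their standard error. Of the others 7 lost a call, 6 gained one and 10 moved further, and 0 called values changed direction. Depth limits Fpr1 and Fpr2, which rest on 85 and 73 read pairs in all 32 mice, and Fpr-rs4 in 129, which rests on 27.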
